A study of Mus musculus with 3 samples.

Results

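Of 18193 genes measured in 3 fractions of olfactory epithelium cells sorted by GFP brightness, 64 had a peak in the brightest fraction and fell outside a set of gene families that were set aside. They were chosen by their signals in these same arrays: the GFP+++ signal of a gene had to be 2 or more times its GFP+ signal and 2 or more times its GFP- signal. Signals under 104, the pooled median of all non-control probe sets, were first raised to that floor, and a gene with several probe sets was represented by the one with the highest mean signal. Of the 12331 genes over the floor on at least 1 array, 71 (0.576%) met the fold rule, and 7 of them were left out because their symbols start with Olfr, Slc, Kcn, Cntn, Dlx, Sox, Kif, Hbb or Sesn. Since these folds chose the genes, they are given as a description.

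Olfactory epithelium was taken at postnatal days 5 to 8 from male and female Tgn1-2G transgenic mice, and RNA was isolated with TriReagent and labelled as biotin cRNA. The GFP+++ fraction held 1000000 highly GFP positive cells, the GFP+ fraction 1300000 weakly positive cells and the GFP- fraction 6800000 negative cells, and the labels give the number 32 for each. All 3 fractions carry the transgene, in which GFP is known from other work to be driven by regulatory sequence of Neurog1, the bHLH gene that starts neuronal fate in this epithelium. By the submitters' account GFP+++ was enriched in immature neurons, GFP+ slightly enriched in mature neurons, and GFP- held every cell type but fewer immature neurons. Each fraction was a pool measured on 1 array, so no difference has a replicate check, a test or a p-value, and the number of arrays limits the precision. In bulk fractions, fewer cells of a type and less RNA per cell cannot be told apart.

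Olfactory sensory neurons are renewed from basal progenitors. A newborn neuron leaves the cell cycle, passes through an immature stage in which it sends an axon to the olfactory bulb and carries the growth cone protein Gap43, and then gains cilia, the marker Omp and the odorant transduction machinery. Genes known from other work to act in the immature stage include transcription factors, cytoskeletal proteins and guidance receptors.

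Markers followed the submitters' account in part. Gap43 had a signal of 11233 in GFP+++, against 6006 in GFP+ and 6395 in GFP-, and Omp had 5041 in GFP+++, against 10615 in GFP+ and 7748 in GFP-. For Neurog1 itself the signal was 1492 in GFP+++, against 1363 in GFP+ and 1202 in GFP-. Of 21 immature neuron markers, 17 were higher in GFP+++ than in both other fractions (39.1% of all genes were), with a median log2 fold of 0.52 over GFP+ and 0.33 over GFP-, and none was among the 64 genes. None of 18 mature neuron markers was higher in GFP+++ than in both, with medians of -0.65 and -0.40. Mature markers were divided between the dimmer fractions. Adcy3 gave 7578 in GFP+ and 5522 in GFP-, but S100a5 gave 14929 and 18708. None of 24 genes of dividing cells was higher in GFP+++ than in both, with medians of -0.99 and -1.36. The lists of leukocyte, connective tissue, glial, gland, sustentacular, microvillar, basal, vessel and erythroid markers had median log2 folds of -0.52 or lower over GFP-, and respiratory ciliated markers had 0.03. Under the scaling used, fewer genes lay over the floor in GFP+++, with 10734, against 11674 in GFP+ and 12031 in GFP-. The median signal of non-control probe sets was 88.2 in GFP+++, against 107 in GFP+ and 118 in GFP-, so these counts depend on the scaling.

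The rule was met by a narrow margin in most cases. The smaller of a gene's folds over GFP+ and GFP- reached 3-fold for 3 of the 64 genes and 2.5-fold for 10 of them. The median log2 fold of the 64 was 1.19 over GFP+ and 1.27 over GFP-, beside medians of -0.0018 and 0.0035 over all genes above the floor. At the same 2-fold line, 0.985% of 11881 genes were higher in GFP+++ than in GFP+ and 1.92% of 12235 were higher than in GFP-; by any amount it was 47.9% and 50.7%. Both folds of a gene share its GFP+++ value, so an error on that array moves both. Just inside the line stood Nexmif, Septin6, Pcf11, 1600023N17Rik and Dennd1c, at 2.00-fold to 2.01-fold. Just outside it stood Ttc9b and Rala (both 1.98-fold), 4932441J04Rik (1.98-fold), Gm19835 and Vwa5b2 (both 1.97-fold).

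**Figure D1:**
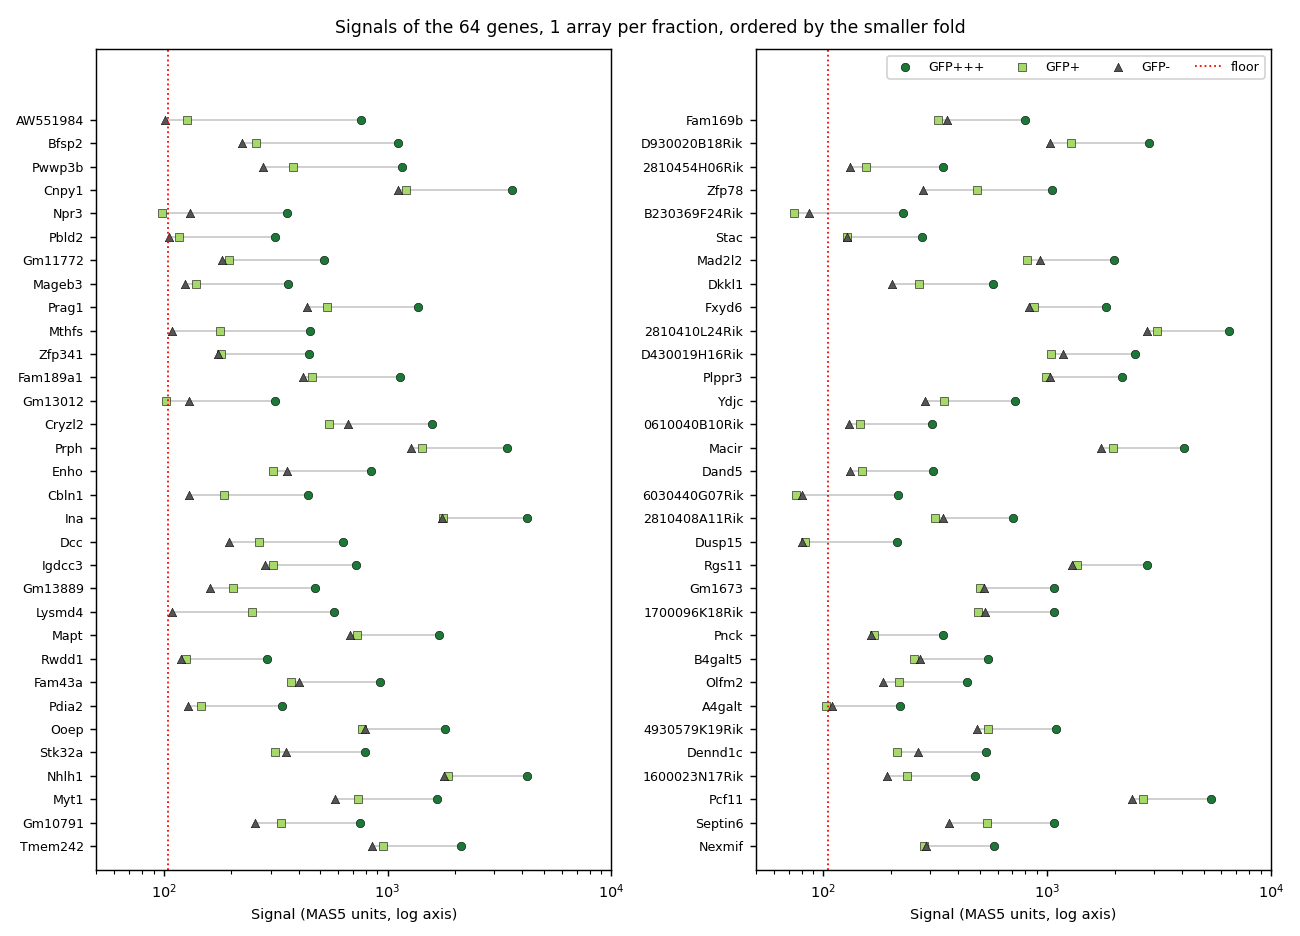
Signal of each of the 64 genes on the GFP+++ (circles), GFP+ (squares) and GFP- (triangles) arrays, on a log axis in MAS5 units; genes run down the page by the smaller of their folds and the dotted line is the floor of 104. Every circle lies to the right, as the rule requires, and the squares and triangles lie closer to each other than to it for most genes; AW551984 has the widest gap and Lysmd4 has its square well to the right of its triangle.

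The gene with the largest folds under the chosen floor and probe set had no proper name. AW551984, an expressed sequence that RefSeq annotates as protein coding, gave 761 in GFP+++, against 127 in GFP+ and 101 in GFP-, so it was 6.01-fold over GFP+ and at least 7.29-fold over GFP-, where it lay under the floor. Its signal was thus clear in the brightest fraction alone and near the floor in both others. Its other probe sets had means under the floor, with 96.1 and 51.9 in GFP+++, and so could not check it. Its log2 fold over GFP+ was 2.59, but 1.47 with the floor at the 65th percentile, where Bfsp2 had 2.02, and 0 with the median over probe sets, under which AW551984 did not meet the rule. In RefSeq order, among genes of the array, it lies between Vwa5a and the odorant receptor gene Olfr976.

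Bfsp2 and Pwwp3b were the other genes past 3-fold. Bfsp2 encodes phakinin, a beaded filament protein known from the eye lens, and gave 1116 in GFP+++, against 259 in GFP+ and 224 in GFP-, with folds of 4.32 and 4.98. Pwwp3b encodes a protein with the chromatin-binding PWWP domain and gave 1160 in GFP+++, against 378 in GFP+ and 278 in GFP-, with folds of 3.07 and 4.17. Each has 1 probe set, so no second measurement was at hand.

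**Figure D2:**
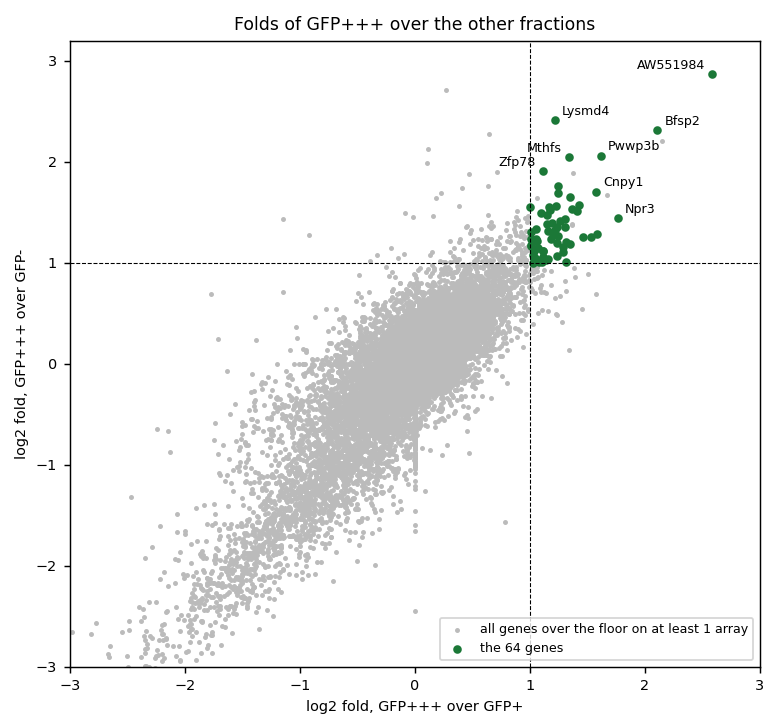
Log2 fold of GFP+++ over GFP- (vertical) against log2 fold of GFP+++ over GFP+ (horizontal) for the genes over the floor on at least 1 array (grey) and the 64 genes (green); dashed lines mark 2-fold, and 134 genes with lower folds or beyond the axes are not shown. The 64 genes fill the corner just past both lines, with AW551984, Bfsp2 and Pwwp3b leading by the smaller of their folds; grey points in that corner are genes left out by their symbols.

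Genes of transcription and RNA processing made up 6 of the 64. Nhlh1, a basic helix-loop-helix factor of newly formed neurons, gave 4211 in GFP+++, against 1856 in GFP+ and 1794 in GFP-, which was 2.27-fold and 2.35-fold. Myt1, a zinc finger factor that promotes neuronal differentiation, gave 1666 in GFP+++, against 739 in GFP+ and 581 in GFP-. The dimmer fractions lay close together for Nhlh1 and somewhat apart for Myt1. Zfp341, a zinc finger gene known in human as a regulator of STAT3 transcription, gave 447 in GFP+++, against 180 in GFP+ and 175 in GFP-. Zfp78, a zinc finger gene of the KRAB type, gave 1049 in GFP+++, against 483 in GFP+ and 279 in GFP-, so that it was graded over the fractions. Of 30 measured transcription factors of progenitors and newborn olfactory neurons, these data put 17 above both other fractions, but Nhlh1 and Myt1 alone past 2-fold in either comparison; 2 were at least 2-fold lower than in GFP+ and 4 than in GFP-. Over all genes, 39.1% were higher in GFP+++ than in both others. The shares 2-fold higher than in GFP+ and in GFP- were 0.985% and 1.92%, and those 2-fold lower were 9.33% and 12.4%.

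Pcf11, which acts in cleavage and termination of transcripts, was divided between its probe sets. The probe set used gave 5411 in GFP+++, against 2693 in GFP+ and 2406 in GFP-. The other probe sets gave 457, 517 and 260 in GFP+++, against 373, 355 and 260 in GFP+ and 401, 574 and 171 in GFP-. One of them was therefore lower in GFP+++ than in GFP-, and none reached 2-fold in either comparison.

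The cytoskeleton was represented by 5 genes, of which 3 encode intermediate filament proteins. Ina, the neuronal filament protein alpha-internexin, gave 4205 in GFP+++, against 1775 in GFP+ and 1749 in GFP-, which was 2.37-fold and 2.40-fold. Prph encodes peripherin, a filament protein of peripheral neurons, and gave 3404 in GFP+++, against 1423 in GFP+ and 1278 in GFP-. The other probe sets of Prph had means under the floor, with 43.0, 29.8 and 4.63 in GFP+++, and so could not check it. With the median over probe sets Prph did not meet the rule. For Ina both other probe sets were also highest in GFP+++ but under 2-fold over at least 1 fraction, with 3731 and 1873 in GFP+++, against 2134 and 1006 in GFP+ and 1670 and 1040 in GFP-. Mapt, the microtubule-binding protein tau, gave 1699 in GFP+++, against 731 in GFP+ and 676 in GFP-, and its other probe sets, with 1490, 1285 and 429 in GFP+++, were highest there too. Septin6, a filament-forming GTPase, gave 1075 in GFP+++, against 537 in GFP+ and 365 in GFP-; of its 3 other probe sets with means over the floor 1 was lower in GFP+++ (99.3) than in GFP+ (124) and GFP- (121).

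The list of intermediate filament genes covers those of lens, neurons and progenitors and the lamins, and leaves out the keratins. Of its 11 measured genes, 6 were higher in GFP+++ than in both other fractions (all genes, 39.1%). Bfsp2, Ina and Prph alone were so by 2-fold (all genes, 0.576%). The list was chosen with earlier results of these data known, so these shares are given as a description. The others of the 6 were Vim, Nefh and the nuclear lamin gene Lmnb2 (650 in GFP+++, against 527 in GFP+ and 458 in GFP-). Nefl, the light neurofilament subunit, was lower in GFP+++ (37.6) than in GFP+ (186) and GFP- (292). Vim, the filament protein of progenitors and many other cells, gave 15917 in GFP+++, against 8719 in GFP+ and 11311 in GFP-. The medium and heavy neurofilament genes gave little signal, with Nefm under the floor on each array and Nefh at 123 in GFP+++, against 122 in GFP+ and 94.8 in GFP-. The list median was a log2 fold of 0.01 over GFP+ and 0.24 over GFP-. The keratin genes Krt5, Krt8, Krt14, Krt15 and Krt18, from the basal and sustentacular lists, were lower in GFP+++ than in both other fractions. Krt8 gave 3171 in GFP+++, against 6692 in GFP+ and 8086 in GFP-, and Krt5 gave 128, against 336 and 542.

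**Figure D3:**
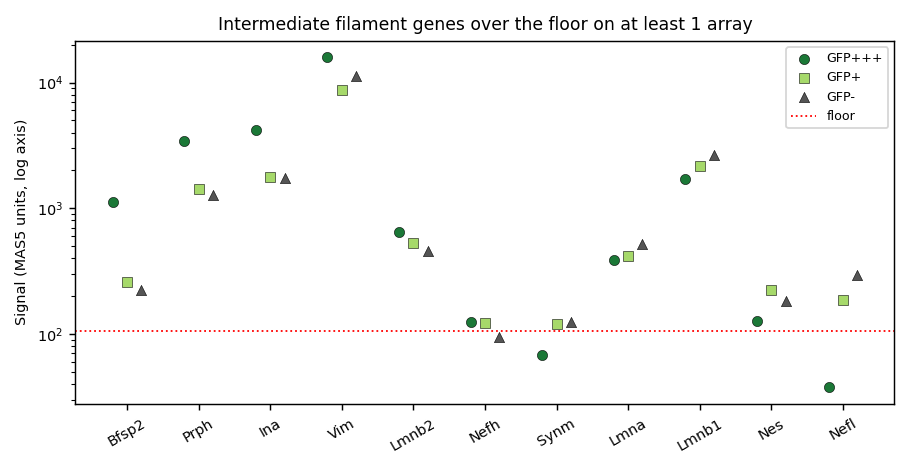
Signals of the 11 listed intermediate filament genes, keratins not included, over the floor of 104 (dotted line) on at least 1 array, in GFP+++ (circles), GFP+ (squares) and GFP- (triangles), on a log axis in MAS5 units, with genes ordered by the smaller of their folds. The circles of Bfsp2, Prph and Ina stand above their squares and triangles by more than 2-fold, while that of Nefl lies below both.

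Guidance and neurite growth genes were 5 of the 64. Dcc, the netrin receptor of growing axons, gave 633 in GFP+++, against 267 in GFP+ and 196 in GFP-, and a second probe set gave 375, against 144 and 107. Igdcc3, a surface protein of the same immunoglobulin subclass, gave 723 in GFP+++, against 306 in GFP+ and 282 in GFP-. Both receptors were thus highest in the brightest fraction. Its chromosomal neighbour Igdcc4, from the same subclass, went the other way, with 82.2 in GFP+++, against 119 in GFP+ and 258 in GFP-. Prag1, a pseudokinase scaffold, gave 1374 in GFP+++, against 538 in GFP+ and 436 in GFP-. Plppr3, a phospholipid phosphatase-related membrane protein of axons, gave 2155 in GFP+++, against 993 in GFP+ and 1034 in GFP-, and Nexmif, a factor of neurite extension, gave 577, against 283 and 288.

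Of 39 measured netrin, Slit, semaphorin and ephrin receptors and ligands, 2 passed 2-fold upward in GFP+++ against GFP+ (Dcc and Draxin, beside 0.985% of all genes) and 4 at least 2-fold lower (all genes, 9.33%). Over GFP-, Dcc alone was at least 2-fold higher (all genes, 1.92%) and 8 were at least 2-fold lower (all genes, 12.4%). In all, 13 of the 39 were higher in GFP+++ than in both other fractions (all genes, 39.1%), and the list medians were log2 folds of -0.18 and -0.16.

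Secreted factors and receptors made up 7 genes. Cnpy1, which in zebrafish takes part in FGF signalling, gave 3610 in GFP+++, against 1214 in GFP+ and 1108 in GFP-, with folds of 2.97 and 3.26. Both of its other probe sets were past 2-fold as well, with 2669 and 1824 in GFP+++, against 943 and 710 in GFP+ and 1005 and 603 in GFP-. All its probe sets thus placed GFP+++ far above fractions that differed little from each other. Npr3, the clearance receptor of natriuretic peptides, gave 355 in GFP+++, against 97.8 in GFP+ and 131 in GFP-, so the fold over GFP+ was at least 3.40. The other probe sets of Npr3 had means under the floor. Its log2 fold over GFP+ was 1.77, but 0.37 with the floor at the 65th percentile and 0 with the median over probe sets. Under both of these settings Npr3 did not meet the rule. Cbln1, a secreted synapse organiser known from cerebellar granule cells, gave 439 in GFP+++, against 185 in GFP+ and 130 in GFP-. Its 2 other probe sets were at 344 and 255 in GFP+++, all at least 2-fold over both other fractions.

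Enho, which encodes the secreted peptide adropin, gave 845 in GFP+++, against 307 in GFP+ and 354 in GFP-. A second probe set of Enho was at 695 in GFP+++, against 266 in GFP+ and 317 in GFP-. Olfm2, an olfactomedin, gave 437 in GFP+++, against 217 in GFP+ and 185 in GFP-. The remaining genes of the group are best known outside neurons. Dand5 is a Nodal antagonist of left-right patterning in the embryo and gave 308 in GFP+++, against 148 in GFP+ and 132 in GFP-. Dkkl1, a secreted protein of the testis, gave 572 in GFP+++, against 267 in GFP+ and 202 in GFP-.

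Signalling and membrane regulators numbered 8, with smaller folds of 2.01 to 2.27. Rgs11, which speeds the shut-off of G protein signalling, gave 2786 in GFP+++, against 1359 in GFP+ and 1285 in GFP-. Macir, an adaptor named for its part in macrophages, gave 4079 in GFP+++, against 1961 in GFP+ and 1735 in GFP-, and its second probe set 3054, against 1558 and 1262. Both were highest in the brightest fraction by little more than 2-fold, and the second Macir probe set fell just short of it over GFP+. Fxyd6, a regulator of the sodium pump, gave 1840 in GFP+++, against 874 in GFP+ and 833 in GFP-. Stk32a, a serine/threonine kinase, gave 797 in GFP+++, against 313 in GFP+ and 350 in GFP-. Of the dimmer fractions, GFP+ was the higher for Fxyd6 and GFP- for Stk32a. Dennd1c, from a family of Rab exchange factors, gave 534 in GFP+++, against 214 in GFP+ and 266 in GFP-. Pnck, a calmodulin-dependent kinase, gave 343 in GFP+++, against 168 in GFP+ and 163 in GFP-. Lower signals were those of Stac, an adaptor protein (276 in GFP+++, against 127 in GFP+ and 128 in GFP-), and of Dusp15, a phosphatase (214, against 83.1 and 80.6, both under the floor).

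Enzymes and proteins of assembly or repair made up 9 genes. Mthfs, which returns a stored folate to one carbon metabolism, gave 451 in GFP+++, against 179 in GFP+ and 109 in GFP-, with folds of 2.53 and 4.14. Of 20 measured genes of folate and one carbon metabolism it was the one past 2-fold upward, while 2 were at least 2-fold lower than in GFP+ and 4 than in GFP-. The shares over all genes were 0.985% and 1.92% upward and 9.33% and 12.4% downward. Cryzl2, a quinone oxidoreductase-like gene, gave 1587 in GFP+++, against 550 in GFP+ and 663 in GFP-, and a second probe set gave 501, against 166 and 142. Both probe sets of Cryzl2 thus passed 2-fold in both comparisons. Pbld2, with a phenazine biosynthesis-like domain, gave 315 in GFP+++, against 117 in GFP+ and 106 in GFP-, close to the floor.

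Both glycolipid enzymes of the set were at modest signals. B4galt5, which makes lactosylceramide, gave 544 in GFP+++, against 253 in GFP+ and 270 in GFP-, and A4galt, which extends that lipid, gave 221, against 103 (under the floor) and 110. Ydjc, a carbohydrate deacetylase homologue, gave 720 in GFP+++, against 345 in GFP+ and 285 in GFP-. Mad2l2, a subunit of a DNA repair polymerase, gave 1999 in GFP+++, against 816 in GFP+ and 929 in GFP-. It overlaps the gene interval of Draxin, a secreted guidance protein, which was at 210 in GFP+++, against 82.6 in GFP+ and 112 in GFP-. Tmem242, known in human from assembly of the mitochondrial ATP synthase, gave 2120 in GFP+++, against 952 in GFP+ and 850 in GFP-, but a second probe set was nearly level, with 1349, 1196 and 1174.

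Pdia2, a protein disulfide isomerase known from the pancreas, gave 338 in GFP+++, against 147 in GFP+ and 129 in GFP-. In RefSeq order it is next to Rgs11 among the single-symbol genes of the array, the one such pair among the 64. Of 86 neighbours over the floor that were not members themselves, 5 (5.81%) exceeded both other fractions by 1.5-fold or more in GFP+++, beside 3.68% of all non-member genes over the floor, and nothing particular is read from these shares. Among the 5 were Dppa5a next to Ooep and Zfp28 next to Zfp78. Dppa5a gave 261 in GFP+++, against 134 in GFP+ and 133 in GFP-, and Zfp28 gave 355, against 219 and 214.

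Among the named genes with little known role in neurons, 7 peaked in GFP+++. Ooep, a maternal protein of the oocyte, gave 1809 in GFP+++, against 769 in GFP+ and 791 in GFP-. Mageb3, from a family best known in the germ line, gave 358 in GFP+++, against 139 in GFP+ and 124 in GFP-. Both were thus highest in the brightest fraction despite being known from germ cells. Lysmd4, with a LysM domain, gave 576 in GFP+++, against 248 in GFP+ and 108 in GFP-, with folds of 2.32 and 5.31, while a second probe set gave 233, against 169 and 144, which is under 2-fold. Fam189a1 gave 1131 in GFP+++, against 457 in GFP+ and 419 in GFP-, Fam43a 923, against 372 and 402, and Fam169b 797, against 327 and 358. Rwdd1, with an RWD domain, gave 290 in GFP+++, against 126 in GFP+ and 119 in GFP-.

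Genes without a proper name were 17 of the 64 (26.6%), beside 3.64% of the 9282 genes whose GFP+++ signal was high enough to pass the rule. Of the 63 with a RefSeq entry, 10 were long non-coding RNAs (15.9%), beside 2.21% of the genes that could have passed. No test was made of these shares, and the genes of the families set aside are among those that could have passed.

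Besides AW551984, the coding or unclassified genes of this kind were 6. D930020B18Rik gave 2849 in GFP+++, against 1281 in GFP+ and 1027 in GFP-, and D430019H16Rik gave 2460, against 1044 and 1176. Gm1673 gave 1074 in GFP+++, against 500 in GFP+ and 525 in GFP-. GFP+ was the higher of the dimmer fractions for D930020B18Rik and GFP- for the others. Gm11772, which had no RefSeq entry under its identifier, gave 520 in GFP+++, against 195 in GFP+ and 183 in GFP-. Gm13889 gave 474 in GFP+++, against 203 in GFP+ and 160 in GFP-. For 2810408A11Rik, with 704 in GFP+++, against 315 in GFP+ and 343 in GFP-, another probe set was highest in GFP+++ as well, at 448, against 210 and 252.

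Of the long non-coding RNAs, 2810410L24Rik was measured by 2 probe sets that both passed 2-fold. The first gave 6489 in GFP+++, against 3103 in GFP+ and 2801 in GFP-, and the second 2291, against 1012 and 861. The first has a name ending that marks possible binding to several transcripts, and the second has not. For 4930579K19Rik the signal was 1095 in GFP+++, against 544 in GFP+ and 486 in GFP-, and for 1700096K18Rik it was 1078, against 490 and 528. Gm10791, which lies within the interval of the amyloid precursor gene App, gave 751 in GFP+++, against 334 in GFP+ and 256 in GFP-. App itself did not share this order, with 11649 in GFP+++, against 9640 in GFP+ and 12350 in GFP-.

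The remaining non-coding genes were closer to the floor. These were 1600023N17Rik (476 in GFP+++, against 237 in GFP+ and 193 in GFP-), 2810454H06Rik (342, against 154 and 132), Gm13012 (314, against 102 and 129) and 0610040B10Rik (304, against 146 and 130). For B230369F24Rik (226 in GFP+++) and 6030440G07Rik (215 in GFP+++), both other fractions lay under the floor, so their folds of 2.17 and 2.06 are lower bounds. Gm13012 overlaps the interval of Ece1, whose order was the reverse, with 1407 in GFP+++, against 2197 in GFP+ and 2635 in GFP-.

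Promoter windows of RefSeq, 250 bases before to 50 after a start on the mouse build GRCm38.p6, were at hand for 49 of the 64 genes. Shown are the windows of the gene with the largest folds (AW551984, chr9:39604221-39604520, minus strand), of Cnpy1, whose probe sets all passed (chr5:28210119-28210418, minus strand), of both neuronal filament genes, Ina (chr19:47014431-47014730, plus strand) and Prph (chr15:99054924-99055223, plus strand), and of the factor Nhlh1 (chr1:172057547-172057846, minus strand). AW551984 and Cnpy1 have other annotated starts, not shown. Each is written 5′ to 3′ along the gene, and capitals mark the E-boxes CAGCTG and CAGATG, on either strand, the letters CCCNNGGG, which form the core of Ebf sites, and TATAAA.
AW551984: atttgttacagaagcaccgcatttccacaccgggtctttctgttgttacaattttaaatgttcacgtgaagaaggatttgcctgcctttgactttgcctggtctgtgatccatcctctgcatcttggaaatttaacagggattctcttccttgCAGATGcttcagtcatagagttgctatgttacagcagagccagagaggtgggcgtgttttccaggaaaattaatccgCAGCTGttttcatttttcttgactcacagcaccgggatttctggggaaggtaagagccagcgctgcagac
Cnpy1: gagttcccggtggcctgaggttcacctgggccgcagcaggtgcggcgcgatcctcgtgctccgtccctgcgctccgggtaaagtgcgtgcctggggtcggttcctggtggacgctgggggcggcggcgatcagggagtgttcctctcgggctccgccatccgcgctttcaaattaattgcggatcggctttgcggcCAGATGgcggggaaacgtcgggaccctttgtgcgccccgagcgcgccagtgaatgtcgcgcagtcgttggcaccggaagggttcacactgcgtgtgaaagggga
Ina: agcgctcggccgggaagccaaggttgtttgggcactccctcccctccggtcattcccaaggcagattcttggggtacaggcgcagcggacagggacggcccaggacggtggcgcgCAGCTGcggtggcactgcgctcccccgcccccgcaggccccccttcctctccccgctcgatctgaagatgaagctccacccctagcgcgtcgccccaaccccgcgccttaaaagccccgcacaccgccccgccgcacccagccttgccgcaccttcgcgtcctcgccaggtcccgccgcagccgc
Nhlh1: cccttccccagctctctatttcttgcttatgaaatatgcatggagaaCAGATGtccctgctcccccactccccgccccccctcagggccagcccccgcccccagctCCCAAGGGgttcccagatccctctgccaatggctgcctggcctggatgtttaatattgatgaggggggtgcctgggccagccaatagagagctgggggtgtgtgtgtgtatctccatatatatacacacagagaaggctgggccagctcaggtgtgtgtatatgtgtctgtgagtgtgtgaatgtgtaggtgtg
Prph: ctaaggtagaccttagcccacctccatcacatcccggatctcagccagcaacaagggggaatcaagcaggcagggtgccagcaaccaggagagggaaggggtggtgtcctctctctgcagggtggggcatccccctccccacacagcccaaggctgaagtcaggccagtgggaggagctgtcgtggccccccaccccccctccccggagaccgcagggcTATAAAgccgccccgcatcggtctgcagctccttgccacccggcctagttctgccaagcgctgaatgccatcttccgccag

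In these windows AW551984 had CAGATG from base -97 and CAGCTG from base -20, counted from the annotated start, Cnpy1 had CAGATG from -54 and Ina had CAGCTG from -135. Nhlh1 had CAGATG from -203 and CCCNNGGG from -144, and Prph had TATAAA from -31. Over the 49 genes, with both strands read, CAGCTG was in the windows of 8 genes (16.3%), beside 17.7% of the 9949 measured genes with a window and 18.3% of all 27025. CAGATG was also in 8 (16.3%), beside 13.6% and 19.2%, and CCCNNGGG in 14 (28.6%), beside 21.4% and 15.4%. The homeodomain letters TAATNA were in the windows of Myt1 and 2810408A11Rik alone (4.08%), beside 17.7% and 29.5%, and TATAAA in 3 (6.12%), beside 9.13% and 15.7%. A match of letters is a description and not a binding site, and the median GC content was 58.7% for the windows of these genes, beside 60.7% for measured genes.

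Other probe sets of the same genes gave a reading that the rule did not use, though on the same arrays and RNA. The 64 genes had 35 members with 1 probe set and 29 with several, which had 53 other probe sets in all. GFP+++ gave the highest raw signal of the 3 arrays for 41 of the 53 (77.4%), beside 33.7% of the 16752 such probe sets of all genes. Of the 24 with a mean signal over the floor, from 15 genes, 22 were higher in GFP+++ than in both other fractions and 9 were at least 2-fold higher, beside 40.5% and 0.594% of 8414 such probe sets of all genes. The 9 came from Cnpy1, Cbln1, Cryzl2, Dcc, Enho, Mapt and 2810410L24Rik. The median of their smaller log2 folds was 0.89 over the 24, under the 1.00 that the rule required of the chosen ones. The exceptions in direction were 1 probe set each of Pcf11 and Septin6.

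**Figure D4:**
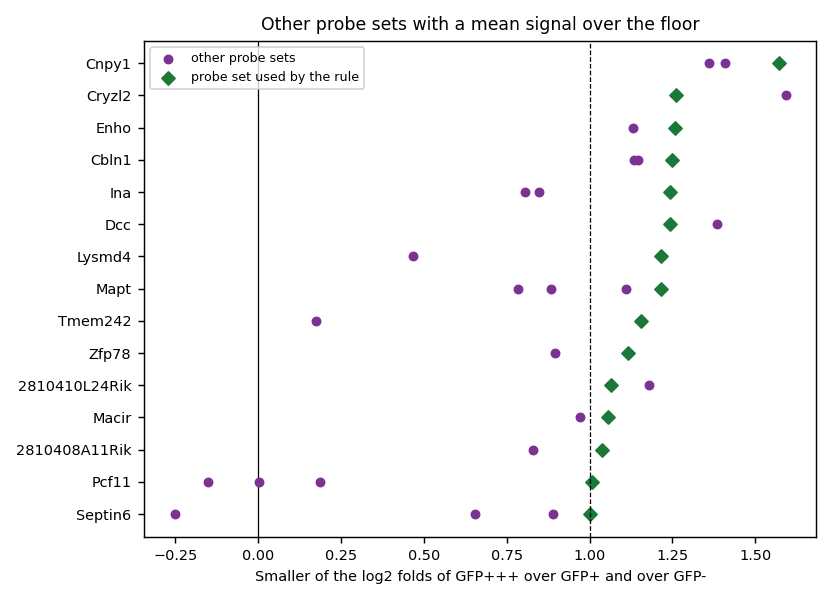
Smaller of the log2 folds of GFP+++ over GFP+ and over GFP- (horizontal) for the probe set used by the rule (green diamonds) and for the other probe sets with a mean signal over the floor (purple points), for the 15 genes that have one; the dashed line marks 2-fold. Points of Cnpy1, Cryzl2, Enho, Cbln1, Dcc and 2810410L24Rik all lie past the dashed line, those of Tmem242 and Pcf11 lie near 0, and 1 point each of Pcf11 and Septin6 lies left of 0.

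The rule and the floor bound how far the dimmer fractions can differ, most tightly for genes with low GFP+++ signals, so their ratio is given as a description. GFP+ over GFP- had a median log2 fold of 0.12 over the 64 genes, beside -0.0049 over all genes above the floor. It ran between -0.33, for Npr3, and 1.19, for Lysmd4. Of the 57 genes over the floor on both arrays GFP+ was higher for 41 and lower for 16. Over all genes above the floor on either of these arrays, a wider set, GFP+ was higher for 48.8%. Lysmd4 alone was 2-fold higher in GFP+ (all genes, 0.607%) and no member was 2-fold lower (all genes, 0.804%), and Zfp78 (0.79), Mthfs (0.71), Septin6 (0.56) and Cbln1 (0.51) followed.

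The count of genes depended on the scaling and the floor. With each array scaled by its median signal, which moved the median log2 fold of all genes to 0.23 over GFP+ and 0.41 over GFP-, 326 genes met the rule, and all 64 were among them. With the floor at the 65th percentile 40 did, each of them among the 64. This overlap follows largely from the settings: median scaling raised GFP+++ against both other fractions, and a higher floor can only shrink a fold.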

How the data were processed

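The members and gene lists were chosen with earlier results of these data known. Each array was deposited as linear signal intensity per probe set, which the authors computed in MAS5 (per the submitters' processing notes); no version or settings were stated there. The 2% trimmed mean of the deposited values was 500.0 on each array. Gene symbols came from the annotation of the Affymetrix mouse array.

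Of 45101 probe sets, 34945 non-control ones had 1 gene symbol and gave 18193 genes; 34741 were matched to RefSeq through the Entrez identifier. All arrays were brought to 1 common trimmed mean, a floor of 104 replaced lower signals, and log2 folds were computed with pandas 2.3.3 in Python 3.11.15. A fold against a signal under the floor is a lower bound. With 1 array per fraction the planned description stands in for a test. Between probe sets of the same gene, log2 folds had a pooled SD of 0.30 for GFP+++ over GFP+ (4640 genes) and 0.30 over GFP- (4633 genes), which holds no spread between animals or sorts. Arrays of 18193 genes were simulated with an SD of 0.21, taken from this spread between probe sets. The genes raised were drawn from those with mean signals at least 2 times the floor. Of 50 raised 3-fold in GFP+++, 49 met the rule, as did 2 of 50 raised 1.5-fold and 0 of 17993 unaltered genes. The simulation held no spread between animals or sorts, so these counts do not give the error rate of the rule in these data. Classes of genes by function were assigned after the members were seen. Values are given for every member, which covers the rule for named genes (largest folds, highest GFP+++ signals, genes without a proper name, list members and genes on each side of the 2-fold line). Of the 21 gene lists, 4 held members (7 genes), and 57 members stood in none. Alternatives were other scalings, floors, probe set choices and folds. Promoter sequences are from RefSeq (GRCm38.p6).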

Additional observations from a re-analysis of the deposited data

Results flagged for a closer look

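Probe sets with no gene symbol or several symbols stood outside the gene table. Of 3123 of them over the floor on at least 1 array, 47 had a GFP+++ signal 2 or more times that of both GFP+ and GFP-, 43 with no symbol and 4 with several. The share was 1.5%, beside 0.576% of the 12331 genes over the floor, each counted by 1 probe set. No test was made of these shares. The 47 probe sets drew attention because a peak in GFP+++ appears in data that no comparison above uses. The 4 with no symbol and the highest GFP+++ signals were these. Probe set 1460457_at gave 2584 in GFP+++, against 1291 in GFP+ and 988 in GFP-, and its smaller fold was 2.00. For 1426665_at the signals were 2170 in GFP+++, against 1047 in GFP+ and 792 in GFP-, with a smaller fold of 2.07. Probe set 1440291_at gave 2077 in GFP+++, against 819 in GFP+ and 688 in GFP-, with a smaller fold of 2.54. For 1455716_at they were 1612 in GFP+++, against 787 in GFP+ and 569 in GFP-, with a smaller fold of 2.05. No gene was assigned to these probe sets here, and the difference has no replicate check.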

How the results depend on the processing

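No paired analysis was possible because each fraction has 1 array. Of the 64 genes, 28 met the rule under each of the 8 processing alternatives that gave them a value. The number of genes that met it was 326 with median scaling, 120 with quantile normalization, 131 with the floor at the 25th percentile, 40 with it at the 65th, 354 with no floor, 502 at a fold of 1.5 and 3 at a fold of 3. It was 59 with the median over probe sets (49 shared), 63 without the probe sets named for possible binding to several transcripts (58 shared) and 65 with the probe set highest on any array (64 shared). Quantile normalization lost 2810410L24Rik, D430019H16Rik and Pcf11. With median scaling the median log2 fold over GFP+ was 1.47 for the 64 and 0.23 for all genes, and over GFP- it was 1.69 and 0.41. Median scaling multiplies each array by 1 factor, so the gap between the 64 and all genes could change little. The sign turned for 3 of 1018 single-gene folds, all with the median over probe sets: Septin6 at -0.23 over GFP+ and -0.10 over GFP-, and Pcf11 at -0.0026 over GFP-. The median log2 fold of GFP+ over GFP- lay between 0 and 0.25. Without detection calls, genes near the floor have no reliable fold.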
